A study of Mus musculus with 4 samples.

Results

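The unfolded protein response genes Xbp1, Hspa5, Hsp90b1, Calr, Pdia4, Pdia6, Sdf2l1, Dnajb9, Herpud1 and Edem1 were examined in RNA sequencing libraries of stimulated mouse T cells. The 10 genes were chosen by name from the known pathway, with earlier results of these data known. All 10 were found among the 16336 gene names used. The cells carried the T cell receptor called TRP1high or the one called TRP1low, and were cultured for 48 h with B cells carrying the peptide M9 or K8. TRP1 stands for tyrosinase-related protein 1, an enzyme of melanin synthesis and a tumour antigen of melanoma. The 4 groups were TRP1high with M9, TRP1high with K8, TRP1low with M9 and TRP1low with K8, each with 1 library made from total RNA of T cells that had been sorted away from the B cells. The labels give neither the mouse strain nor the number of animals, nor how the receptors were introduced. No group had a replicate, so no difference between libraries can be weighed against variation among cultures.

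The unfolded protein response adjusts the protein folding capacity of the endoplasmic reticulum (ER) to the load of newly made secretory and membrane proteins. Unfolded protein draws the chaperone BiP away from the sensors IRE1, PERK and ATF6. IRE1 then cuts the Xbp1 mRNA so that it encodes an active transcription factor, ATF6 is cleaved to release another, and PERK slows translation and raises ATF4. XBP1 and ATF6 induce ER chaperones, disulfide isomerases and the machinery of ER-associated degradation, by which misfolded proteins are sent to the proteasome. In T cells, XBP1 is made after antigen stimulation, and effector CD8 T cells secrete cytokines and granule proteins through the same organelle.

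Values are log2(normalized counts + 1) as deposited, and a library is named by its receptor and peptide. The libraries held 41.5 M, 40.5 M, 40.3 M and 29.6 M estimated reads in TRP1high with M9, TRP1high with K8, TRP1low with M9 and TRP1low with K8. In that order 672, 633, 769 and 1205 genes were at 0. All 10 CD8 T cell markers were detected in every library, with medians of 14.10, 13.54, 13.81 and 13.26. The members took 0.292%, 0.320%, 0.333% and 0.322% of the estimated reads (95% Wilson intervals 0.290 to 0.293, 0.318 to 0.321, 0.331 to 0.334 and 0.320 to 0.324). Read shares and intervals cover counting error only.

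The promoters are shown because their sequence elements differ among the members. The genes were chosen as known members of a pathway whose factors bind these elements. The shares of promoters with a match are therefore a description and are not independent of that choice. RefSeq promoters (GRCm38.p6, 250 bases before to 50 after the annotated start) were matched for 10 of 10 members. They were searched on both strands for exact matches to the ER stress response element (ERSE, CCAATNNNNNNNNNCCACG), to ERSE-II (ATTGGNCCACG) and to the core of the unfolded protein response element (UPRE, TGACGTG). ATF6 is known to bind the first pair of elements together with the factor NF-Y, and XBP1 and ATF6 to bind the UPRE. ERSE and ERSE-II share the letters CCACG, and no match counted here overlapped another. The whole window is given for Hspa5, which held 2 matches, and for Xbp1, which held 0. Capitals mark the matches.
Hspa5 promoter (chr2:34771840-34772139, plus strand): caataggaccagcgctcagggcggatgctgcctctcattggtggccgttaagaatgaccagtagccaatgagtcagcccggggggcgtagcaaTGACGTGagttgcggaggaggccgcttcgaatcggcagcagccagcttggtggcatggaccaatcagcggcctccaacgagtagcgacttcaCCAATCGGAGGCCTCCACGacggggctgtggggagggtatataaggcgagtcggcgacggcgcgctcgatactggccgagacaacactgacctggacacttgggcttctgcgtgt
Xbp1 promoter (chr11:5520391-5520690, plus strand): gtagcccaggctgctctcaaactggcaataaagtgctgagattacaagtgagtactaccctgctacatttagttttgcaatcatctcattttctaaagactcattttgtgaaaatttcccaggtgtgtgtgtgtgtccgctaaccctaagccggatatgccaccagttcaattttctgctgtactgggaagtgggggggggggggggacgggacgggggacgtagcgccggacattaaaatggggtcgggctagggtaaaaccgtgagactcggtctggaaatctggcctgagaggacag

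ERSE matches were found in 4 of the 10 promoters, against 0.119% of all 32851 promoters of the same length. They are printed in the direction of the motif, with the fixed letters in capitals. The element of Hspa5 lay on the coding strand, 65 to 47 bases before the start. Those of Hsp90b1 lay 212 to 194 bases before the start on the coding strand and 107 to 89 before it on the opposite strand. That of Calr lay 162 to 144 bases before the start on the opposite strand, and that of Pdia6 98 to 80 before it on the coding strand. All these starts are those of RefSeq. The GENCODE interval of Hspa5, given with that gene below, begins upstream of its RefSeq start, so its ERSE lies inside that interval.
Hspa5 (chr2:34772025-34772043): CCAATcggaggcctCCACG
Hsp90b1, farther (chr10:86705638-86705656): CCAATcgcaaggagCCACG
Hsp90b1, nearer (chr10:86705533-86705551): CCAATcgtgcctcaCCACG
Calr (chr8:84847075-84847093): CCAATgagggtcgaCCACG
Pdia6 (chr12:17266491-17266509): CCAATgaaaggcggCCACG
Herpud1, ERSE-II (chr8:94386377-94386387): ATTGGgCCACG

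The ERSE-II match of Herpud1 lay 52 to 42 bases before the start, and 0.0365% of all promoters held one. The UPRE core was matched in Hspa5, 157 to 151 bases before the start, against 2.01% of all promoters. Exact letters of these elements were not in the windows of Xbp1, Pdia4, Sdf2l1, Dnajb9 and Edem1. The shorter half-site CCACG was in 9 of the 10 windows, that of Xbp1 being the exception, and in 32.8% of all windows. The member promoters held a median of 66.2% G or C (51.0% to 76.0%), against 52.7% over all promoters.

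**Figure D1:**
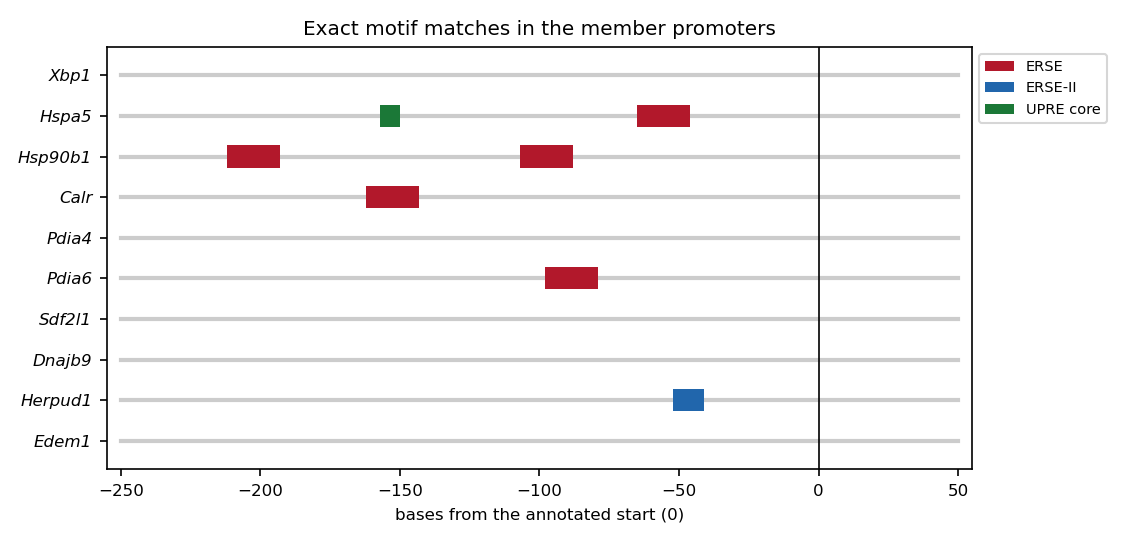
Position of exact ERSE, ERSE-II and UPRE core matches in the promoters of the 10 members, in bases from the annotated start (0), with each grey line running from 250 bases before to 50 after it. ERSE matches stand in Hspa5, Hsp90b1, Calr and Pdia6, and the ERSE-II match in Herpud1.

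Xbp1 is the gene whose transcript IRE1 cuts. It lies on chromosome 11 (5520659 to 5525893, mm10, plus strand). The mRNA carries a short intron of 26 bases that IRE1 removes in the cytosol, which shifts the reading frame to that of the active factor. The stretch is shown because the deposited values have 1 number per gene and so do not separate the forms with and without it. It is given from the GENCODE transcript Xbp1-201 with 20 bases on each side and the intron in capitals (chr11:5524279-5524304, exon 4 of that transcript).
Xbp1 intron: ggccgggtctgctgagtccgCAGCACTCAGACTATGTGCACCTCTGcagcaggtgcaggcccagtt
The 26 bases were present in 3 of the 4 GENCODE M21 transcripts of the gene, all 3 of them protein-coding. The splicing state was not analysed here.

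Xbp1 was the member that differed most between the libraries. It stood at log2 12.43 in TRP1high with M9, 12.63 in TRP1high with K8, 12.62 in TRP1low with M9 and 11.14 in TRP1low with K8. These values rest on 5589, 6358, 5996 and 1647 estimated reads. TRP1low with K8 was low, and the other 3 libraries lay within 0.20 of each other. The level in TRP1low was 2.79-fold higher with M9 than with K8 (95% exact counting interval 2.64 to 2.95), whereas in TRP1high the ratio of M9 to K8 was 0.871 (0.840 to 0.903). With K8, Xbp1 was 2.82-fold higher in TRP1high than in TRP1low (2.67 to 2.98), and with M9 the ratio of TRP1high to TRP1low was 0.879 (0.848 to 0.912). The 2 large ratios share the library of TRP1low with K8 and are not independent of each other. In bulk RNA, fewer cells of a type and less RNA per cell cannot be told apart.

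Xbp1 took 135 RPM (estimated reads for each 1 M reads of the library) in TRP1high with M9, 157 in TRP1high with K8, 149 in TRP1low with M9 and 55.6 in TRP1low with K8. The other 9 members together took 0.278%, 0.304%, 0.318% and 0.316% in the same order of libraries, so that their summed share in TRP1low with K8 was not the lowest. Among the 9219 more abundant genes, those that averaged 200 or more normalized counts, 3.47% were as far apart as Xbp1 between M9 and K8 in TRP1low, and 5.78% between TRP1high and TRP1low with K8.

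**Figure D2:**
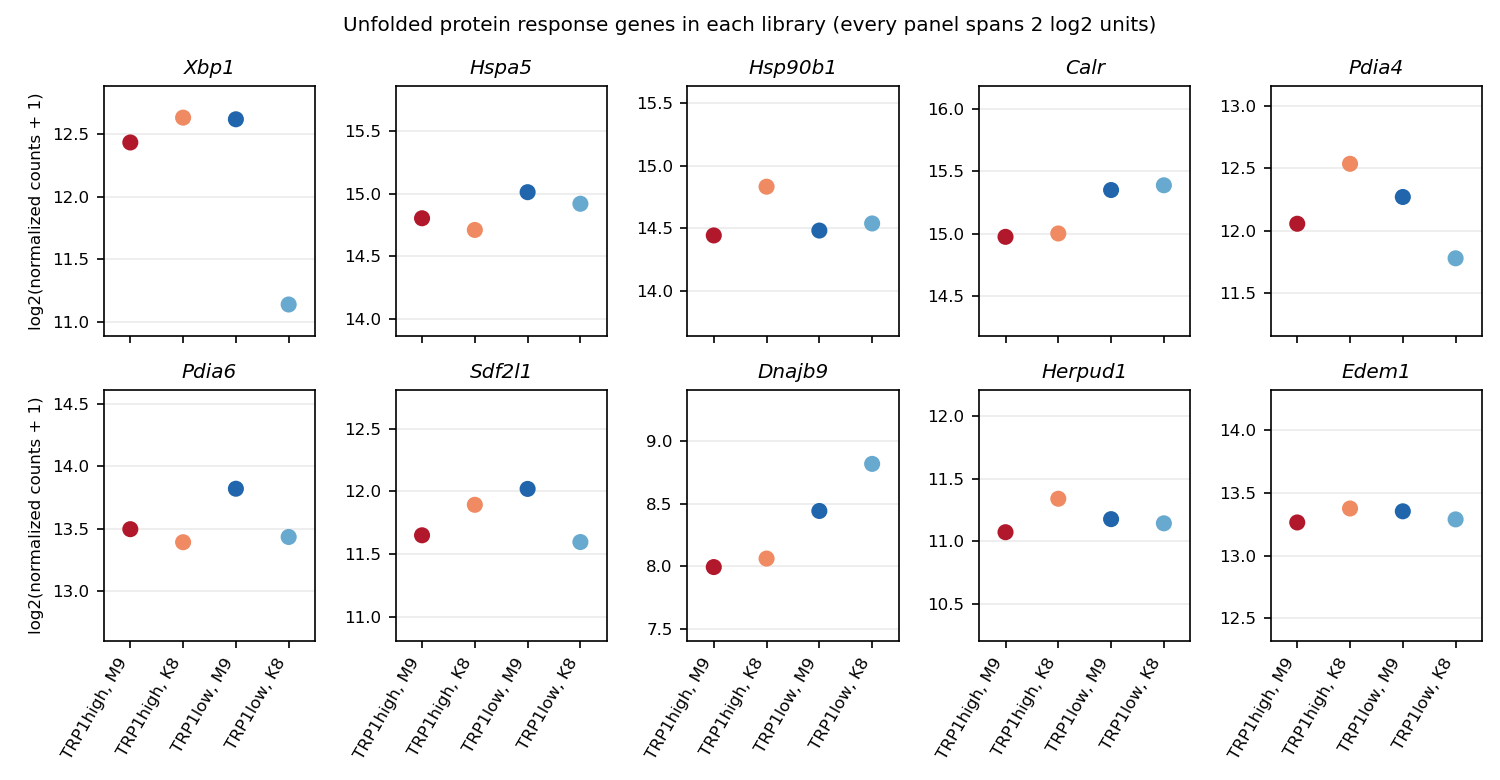
Level of each member in each library as log2(normalized counts + 1), 1 point per library and no replicates, with every panel spanning the same height of 2 log2 units. Xbp1 is low in TRP1low with K8 (11.14), while Edem1 and Herpud1 are nearly flat.

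The ER lumenal chaperones moved little. Hspa5 encodes BiP, the main chaperone of the ER lumen and the partner of the sensors (chromosome 2, 34771970 to 34777547). It stood at 14.80, 14.71, 15.01 and 14.92 in TRP1high with M9, TRP1high with K8, TRP1low with M9 and TRP1low with K8. Both TRP1low libraries lay above both TRP1high libraries, and the whole range was 0.30. The M9 library was 0.09 above the K8 library in each receptor.

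Hsp90b1 encodes the ER form of the chaperone HSP90 (chromosome 10, 86690209 to 86705509, minus strand). It stood at 14.44, 14.83, 14.48 and 14.54 in the same order, so that TRP1high with K8 was high and the other 3 libraries lay close together. The difference of M9 from K8 was -0.39 in TRP1high and -0.06 in TRP1low. The gene 1810014B01Rik overlaps it on the other strand, at 8.45, 8.36, 8.94 and 9.08, and the labels do not say whether the counting used strand.

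Calr encodes calreticulin, a lectin chaperone that also takes part in loading MHC class I molecules (chromosome 8, 84841850 to 84846934, minus strand). It stood at 14.98 and 15.00 in TRP1high with M9 and K8, and at 15.35 and 15.39 in TRP1low with M9 and K8. Both TRP1low libraries were thus above both TRP1high libraries. The ratio of TRP1high to TRP1low was 0.771 with M9 (0.760 to 0.783) and 0.766 with K8 (0.754 to 0.777). Of the more abundant genes, 38.7% with M9 and 45.4% with K8 were as far apart as Calr between the receptors. The peptide differences were -0.03 in TRP1high and -0.04 in TRP1low.

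The disulfide isomerases help newly made proteins to form disulfide bonds. Pdia4 (chromosome 6, 47796141 to 47813430, minus strand) stood at 12.06, 12.53, 12.27 and 11.78 in TRP1high with M9, TRP1high with K8, TRP1low with M9 and TRP1low with K8. It was lowest in TRP1low with K8, as Xbp1 was, and highest in TRP1high with K8. With K8 it was 1.69-fold higher in TRP1high than in TRP1low (1.61 to 1.77). With M9 over K8 it was 0.717-fold (0.690 to 0.746) in TRP1high and 1.40-fold (1.34 to 1.47) in TRP1low, in opposite directions.

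Pdia6 (chromosome 12, 17266545 to 17284770) stood at 13.50, 13.39, 13.82 and 13.44 in the same order. TRP1low with M9 was high, and the other 3 libraries lay close together. Sdf2l1, a partner of BiP and its co-chaperones in the ER lumen (chromosome 16, 17130138 to 17132383, minus strand), stood at 11.65, 11.89, 12.02 and 11.60. Its lowest library was TRP1low with K8.

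Dnajb9 encodes an ER co-chaperone of BiP that restrains IRE1 (chromosome 12, 44205559 to 44210326, minus strand), and it was the least abundant member. It stood at 7.99 and 8.06 in TRP1high with M9 and K8, and at 8.44 and 8.82 in TRP1low with M9 and K8, on 256, 266, 330 and 329 estimated reads. Both TRP1low libraries were above both TRP1high libraries, and TRP1low with K8, the lowest library for Xbp1, was the highest for Dnajb9. The difference of TRP1high from TRP1low was -0.76 with K8 and -0.45 with M9, and the matching ratio with M9 had a counting interval of 0.619 to 0.864. Between the receptors, 19.5% of the more abundant genes with K8 and 31.0% with M9 were as far apart as Dnajb9.

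The degradation genes were the flattest. Herpud1, an ER membrane protein that helps to assemble the degradation machinery (chromosome 8, 94386438 to 94395377), stood at 11.07, 11.34, 11.18 and 11.15 in TRP1high with M9, TRP1high with K8, TRP1low with M9 and TRP1low with K8. Edem1, which passes misfolded glycoproteins on to degradation (chromosome 6, 108828641 to 108859356), stood at 13.26, 13.38, 13.35 and 13.29. Its standard deviation over the 4 libraries was 0.053, and 1.32% of the more abundant genes had a smaller one.

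Over the 4 libraries the members had a median standard deviation of 0.20 log2 units, against 0.27 for the more abundant genes, and 7 of the 10 members were below that median. Xbp1 had a standard deviation of 0.72, larger than that of 91.0% of these genes. Dnajb9 followed with 0.38 and Pdia4 with 0.32. Per kilobase of annotated exon, the mean level was highest for Calr (12997 normalized counts per kb), followed by Hspa5 (7063) and Hsp90b1 (6090), and lowest for Dnajb9 (129). Xbp1 had 1572 normalized counts per kb, close to Edem1 (1586). TRP1high with M9 held the lowest value of 5 members and the highest of 0, and TRP1high with K8 held the highest value of 5. The shares of all genes with their lowest or highest value in these libraries were not computed, so these counts are a description only. Many other genes were also lower in TRP1high with M9. Of the more abundant genes, 56.3% were lower there than in TRP1high with K8, and 56.4% lower than in TRP1low with M9.

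The first comparison asks how the peptide changed the genes within a receptor. In TRP1high, 0 of the 10 members were at least 2-fold apart between M9 and K8, where 9.87% of all 16100 genes and 3.9% of the more abundant ones were. The members' median difference was -0.16 (range -0.48 to 0.10), with 8 lower and 2 higher with M9, and 56.3% of the more abundant genes were lower. In TRP1low, 1 of 10 members (Xbp1, higher with M9) was at least 2-fold apart, against 15.1% of all genes and 7.55% of the more abundant ones. The median there was 0.08, and apart from Xbp1 the differences ran from -0.38 (Dnajb9) to 0.49 (Pdia4).

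A threshold of 1.5-fold was also applied. M9 and K8 differed by that much for 0 members in TRP1high and 1 in TRP1low, where 12.1% and 19.7% of the more abundant genes did.

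The second comparison asks how the receptor changed the genes with the same peptide. With K8, 1 of 10 members (Xbp1, higher in TRP1high) was at least 2-fold apart, against 18.9% of all genes and 12.3% of the more abundant ones. At 1.5-fold 3 members were apart, Xbp1 and Pdia4 higher and Dnajb9 lower in TRP1high, against 29.1% of the more abundant genes. The median over the members was 0.14.

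With M9, 0 members were apart at 2-fold, against 13% of all genes and 6.83% of the more abundant ones, and 0 at 1.5-fold, against 20.1%. All 10 members were lower in TRP1high than in TRP1low with M9, by small amounts (-0.45 for Dnajb9 to -0.04 for Hsp90b1, median -0.21). Of the more abundant genes, 56.4% were lower and the median was -0.07. With the libraries scaled to the same total, 9 of 10 were lower, Hsp90b1 being 0.003 above 0.

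**Figure D3:**
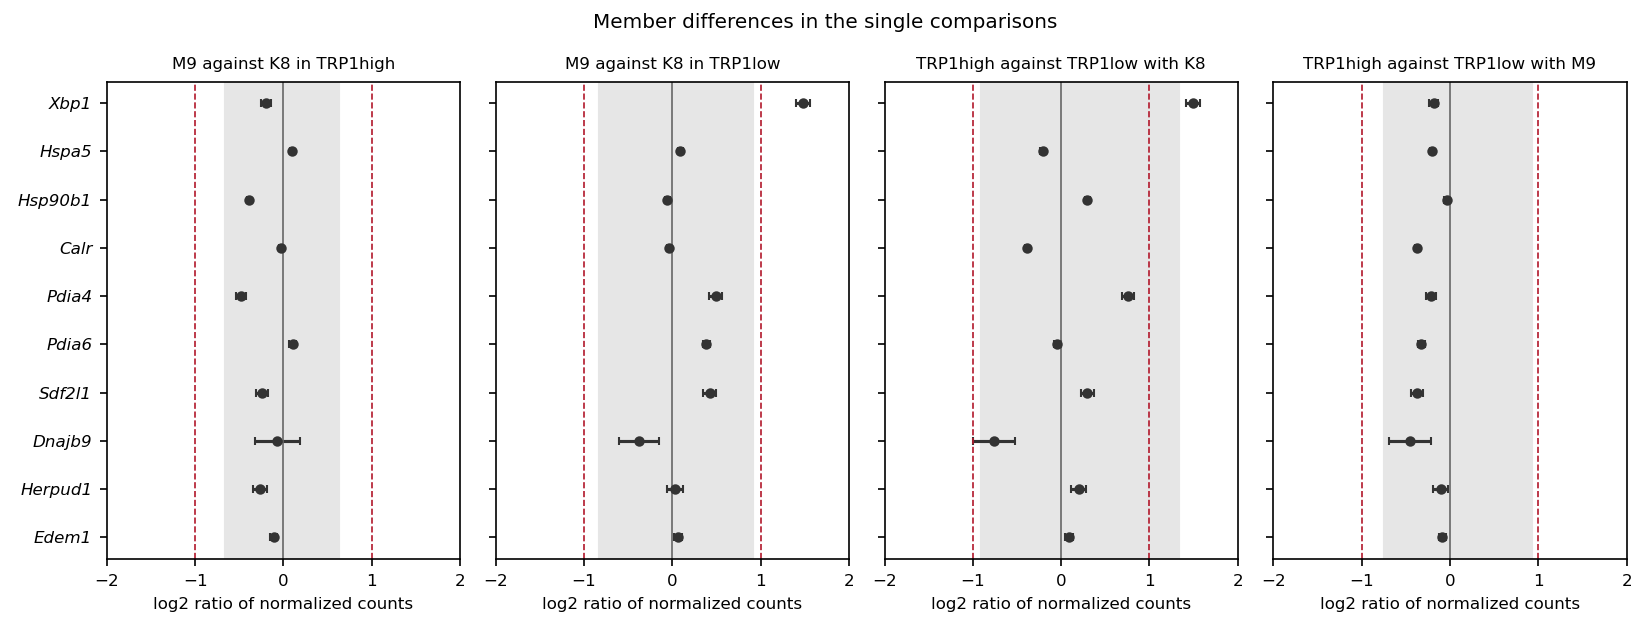
Log2 ratio of normalized counts for each member in the 4 comparisons, named above each panel with the first group over the second. Bars are 95% exact counting intervals, red dashed lines mark 2-fold and the grey band leaves out the lowest and the highest 5% of the more abundant genes; Xbp1 alone lies beyond 2-fold, in the panels that involve TRP1low with K8.

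The peptide difference of TRP1high minus that of TRP1low had a median of -0.29 over the members, against -0.06 for the more abundant genes. It was -1.68 for Xbp1, the 1 member beyond 2-fold, where 7.91% of those genes were. Pdia4 (-0.97) and Sdf2l1 (-0.67) followed, and Dnajb9 had the highest value (0.31). The 4 libraries leave no residual for a test of this difference.

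An additive model of receptor and peptide was fitted over all 4 libraries (limma). It left 1 residual degree of freedom, the disagreement of each difference between the 2 pairs of libraries. The error of each gene was moderated towards a value drawn from all genes (1.40 prior degrees of freedom). For Calr the residual standard deviation was 0.0056 and the SE 0.19, so its SE came mostly from the other genes. For the peptide over both receptors, Xbp1 was 0.64 higher with M9 (SE 0.57, adjusted p = 0.75, Benjamini-Hochberg). For the receptor over both peptides, it was 0.65 higher in TRP1high (SE 0.57, adjusted p = 0.61). The members with the smallest adjusted p in limma for the receptor were Dnajb9, with a log2 difference of -0.60 (SE 0.21, adjusted p = 0.41), and Calr at -0.38 (SE 0.19, adjusted p = 0.47), each lower in TRP1high in 2 of 2 pairs. At an adjusted p under 0.05 limma called 0 of the members and 0 of 16100 genes (0%) in either comparison, while 1342 and 2043 genes had an unadjusted p under 0.05 for the peptide and the receptor. With a trended prior, limma called 5 genes for the peptide and 260 for the receptor, and 0 of the members. These p-values measure the spread between single libraries of different groups, not between cultures.

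Transcripts of other cell types moved along with the libraries, and they are given beside the Xbp1 result. The 10 measured B cell markers summed to 156, 1911, 344 and 1003 normalized counts in TRP1high with M9, TRP1high with K8, TRP1low with M9 and TRP1low with K8. Pax5 and Cr2 were at 0 in TRP1high with M9, as was Cr2 in TRP1low with M9. Xbp1 itself had 5530, 6346, 6289 and 2252 normalized counts in the same order of libraries. Whether B cell transcripts had a part in these values was not tested.

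Plasma cells are known for very high Xbp1. Of the 10 plasma cell markers, 8 were measured besides Xbp1, and none of the 8 was at 0 in any library. They summed to 25975, 19640, 27235 and 8882 normalized counts, of which most was Irf4, a transcription factor that activated T cells also express. Irf4 stood at 14.57, 14.10, 14.65 and 12.91, lowest in TRP1low with K8 as Xbp1 was. Of the 8 markers, 4 were lowest in TRP1low with K8, namely Irf4, Sdc1, Slamf7 and Fkbp11. Sdc1, a surface proteoglycan, stood at 8.82, 8.55, 8.46 and 7.92, and Slamf7, a receptor that is also found on cytotoxic T cells, at 10.07, 10.41, 9.92 and 9.43. Jchain and Mzb1, which serve antibody assembly, were highest in TRP1low with K8, at 2.61, 4.99, 1.06 and 5.64 for Jchain and 0.99, 5.90, 1.03 and 6.45 for Mzb1. The markers of this list thus did not share 1 order of libraries. The 7 measured myeloid or dendritic markers summed to 14.0, 26.6, 30.6 and 153, highest in TRP1low with K8, with 1 marker at 0 in each of the other 3 libraries. Among the CD8 T cell markers, Gzmb stood at 17.19, 17.12, 16.97 and 14.89. The part of these transcripts in the Xbp1 result was not tested.

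**Figure D4:**
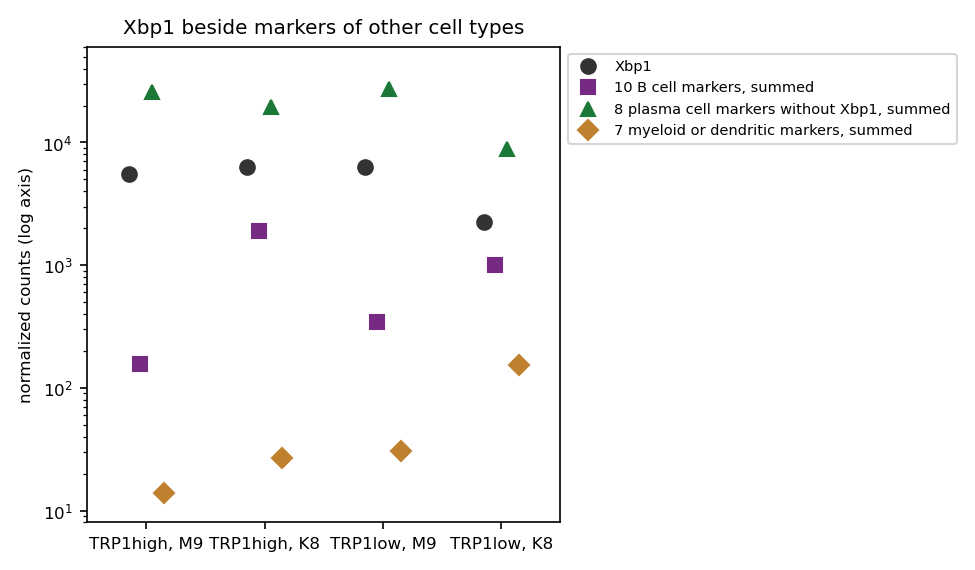
Normalized counts (log axis) of Xbp1 and the summed counts of markers of other cell types in the 4 libraries. Xbp1 has 2252 counts in TRP1low with K8, against 5530 to 6346 in the other libraries, and the sum of the 8 plasma cell markers, most of it Irf4, is also lowest there (8882, against 19640 to 27235).

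The wider ER pathway was read from lists. Across the 6 lists of sensors, chaperones, isomerases, degradation, translocation and transport genes, 100 genes were measured. In TRP1high, M9 was at least 2-fold above K8 for 1 gene and below it for 1, and in TRP1low for 2 and 2. TRP1high was above TRP1low for 3 genes and below it for 2 with K8, and for 2 and 2 with M9. Of all genes, 9.87% and 15.1% were as far apart in either direction between the peptides in TRP1high and TRP1low, and 18.9% and 13% between the receptors with K8 and M9. Of the more abundant genes, the shares were 3.9%, 7.55%, 12.3% and 6.83% in the same order. Most genes of these lists were themselves abundant. The medians of the 100 genes were 0.00, 0.05, -0.08 and -0.10 in these comparisons.

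Among the 8 sensors and their processing proteases, 5 were within 2-fold in all 4 comparisons. For this list and those below, the share of all genes within 2-fold in all 4 comparisons was not computed. Such counts therefore do not show whether a list was steadier than other genes. Ern1, which encodes the sensor IRE1, was lower with M9 in TRP1low, at 6.26 against 7.49 with K8, so that the library with the least Xbp1 held the most Ern1, on 72 estimated reads with M9 and 131 with K8. In TRP1high it stood at 6.70 with M9 and 6.56 with K8. Atf6 stood at 10.75, 10.51, 10.16 and 9.56 in TRP1high with M9, TRP1high with K8, TRP1low with M9 and TRP1low with K8. Mbtps2, a protease that cleaves ATF6, was low in TRP1high with M9 alone (9.29, against 10.36 in TRP1high with K8 and 10.33 in TRP1low with M9), and Creb3l2, an ER-bound transcription factor, was higher with M9 in TRP1high (7.76, against 6.61 with K8). The list's medians were 0.15 and -0.06 for the peptide in TRP1high and TRP1low.

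Of 15 measured chaperones and co-chaperones, 14 were within 2-fold throughout, with no matching share of all genes at hand. The exception was Fkbp11, named after its values were seen, at 6.68 with M9 and 5.25 with K8 in TRP1low. The median of this list was 0.12 for the peptide in TRP1high and 0.36 in TRP1low. Of 13 isomerases and oxidases 12 were within 2-fold, with medians of -0.07 and -0.17. Pdia5, an isomerase of the ER, was the exception and was lower in TRP1high than in TRP1low, at 6.89 in TRP1high against 7.90 in TRP1low with M9, and at 7.57 in TRP1high against 8.81 in TRP1low with K8.

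Of 18 degradation genes 17 were within 2-fold, with peptide medians of -0.07 in TRP1high and -0.09 in TRP1low. The exception was Derl3, which stood at 1.63 in TRP1high and 4.19 in TRP1low with K8, at few reads. Of 26 translocation and glycosylation genes 25 were within 2-fold, with medians of 0.02 and 0.07. There the exception was Sec61g, a subunit of the protein channel of the ER membrane, at 5.34 with M9 and 4.30 with K8 in TRP1low, and at 5.56 in TRP1high with K8. Derl3 and Sec61g were named after their values were seen.

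Transport between the ER and the Golgi had 16 of 20 genes within 2-fold, with peptide medians of -0.01 in TRP1high and 0.08 in TRP1low. Golgb1, a Golgi membrane protein, was higher in TRP1high than in TRP1low with either peptide, 2.37-fold with M9 and 2.90-fold with K8. Sec24a, a coat protein of ER-derived vesicles, was higher in TRP1high with K8 (10.45, against 9.39 in TRP1low), and its relative Sec24d was lower with M9 in TRP1low (7.11, against 8.28 with K8). The fourth was Kdelr3, named after its values were seen, which had at most 20 estimated reads in any library. The cytosolic and mitochondrial heat shock list, which answers to another stress pathway, had medians of -0.11 and 0.03 for the peptide in TRP1high and TRP1low, and 0.07 and -0.15 for the receptor with K8 and M9, with 2 of 16 genes called. Hspa1a was at 0 in TRP1low with K8 and had at most 41 estimated reads elsewhere, and Hspa1b was 2.09-fold higher in TRP1high than in TRP1low with M9, on 113 and 51 estimated reads. Hspb1 had at most 7 estimated reads in any library and was too low to be called. These 3 genes were named after their values were seen.

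The targets of PERK, ATF4 and CHOP, a list chosen with earlier results of these data known, are also induced by other stresses. Of 12 such genes, 10 were at least 2-fold higher in TRP1high than in TRP1low with K8 and 4 with M9, and 6 were higher with M9 in TRP1low and 2 in TRP1high, with 0 lower in any of these comparisons. The shares of all genes apart in either direction were 18.9%, 13%, 15.1% and 9.87% in these comparisons. The list's medians were 1.66, 0.64, 0.89 and -0.07 in these comparisons. Nupr1 and Vldlr of this list were at 0 in TRP1low with K8, and each was past 2-fold against a floor of 3 reads as well. Atf4 itself stood at 13.63, 13.73, 13.23 and 12.46 in TRP1high with M9, TRP1high with K8, TRP1low with M9 and TRP1low with K8. Trib3, an ATF4 target, stood at 9.21, 9.77, 8.57 and 7.49, Cebpb at 8.54, 8.88, 7.13 and 6.12, and Atf3 at 11.52, 9.72, 9.94 and 3.69, the last on 9 estimated reads. TRP1low with K8 was the lowest library for all 4 of these genes. Ddit3, which encodes CHOP, stood at 7.71, 7.51, 6.48 and 6.56. Whether this list differed from the members was not tested.

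**Figure D5:**
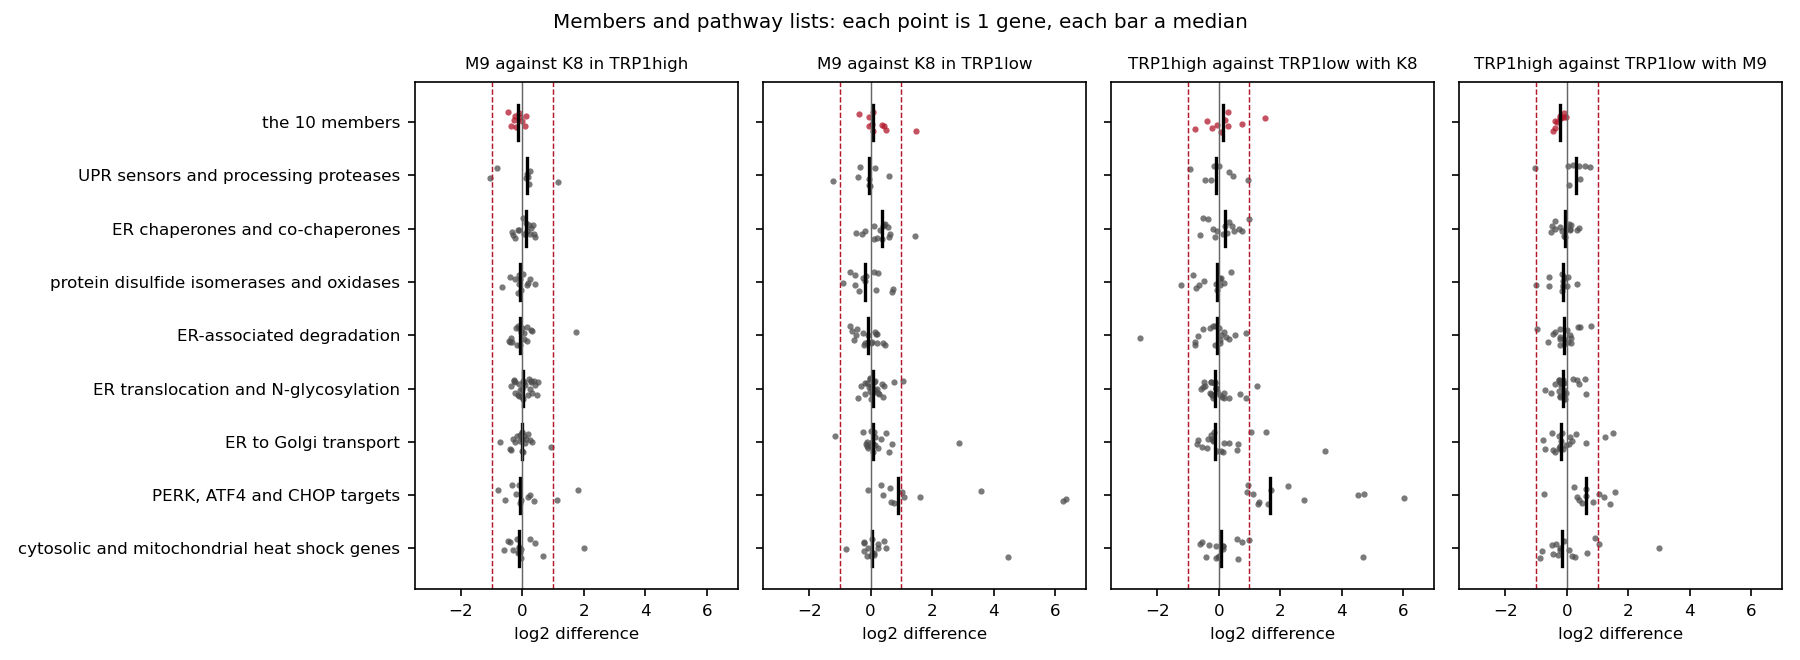
Log2 difference of each gene of the members (top row, red) and of 8 pathway lists (rows) in the 4 comparisons (panels, first group minus second), with a bar at each median and red dashed lines at 2-fold. The medians of the 6 ER lists lie between -0.18 and 0.36 over all panels, and those of the list of PERK, ATF4 and CHOP targets between -0.07 (M9 against K8 in TRP1high) and 1.66 (TRP1high against TRP1low with K8).

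The mean profile of the 10 members, centred on each gene's own mean, was -0.10, 0.06, 0.14 and -0.11 in TRP1high with M9, TRP1high with K8, TRP1low with M9 and TRP1low with K8. Without Xbp1 it was -0.13, 0.02, 0.11 and -0.003 in the same order. The 5 other genes nearest to the profile of all 10, by Euclidean distance over the 4 libraries among the other 9209 more abundant genes, were Rps19bp1, Mrpl12, Heatr5b, Exosc4 and Pop5 (distances from 0.014 to 0.032).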

How the data were processed

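RNA sequencing of sorted T cells gave 1 library for each receptor and peptide, grouped by the sample titles. The values in the files are log2 of normalized counts, per the file headers, with genes given by symbol and libraries scaled by the authors. The submitters' processing notes name Salmon 0.8.2, DESeq2 1.20.0 and mm10. Settings and annotation: not given in the sources used here. Back on the linear scale, less the added 1, low values lay on multiples of 1 step per library (0.989, 0.998, 1.05 and 1.37 normalized counts in TRP1high with M9, TRP1high with K8, TRP1low with M9 and TRP1low with K8). Dividing by it gave estimated reads. From 56.2% to 56.4% of values up to 50 came within 0.01 of a whole read, so no count test was run.

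Of 16338 rows, 2 with a repeated name were left out. Tests covered the 16100 genes that averaged 1 or more normalized counts. In a pair of libraries a gene was called when at least 2-fold apart on the deposited scale with at least 10 normalized counts in 1 of them. Ratios of normalized counts have 95% exact (Clopper-Pearson) counting intervals. limma 3.58.1 in R 4.3.3 (eBayes without trend) fitted receptor and peptide over all 4 libraries, with Benjamini-Hochberg adjustment over all genes tested at 0.05. A check on simulated counts, which held only a peptide effect, covered the size of the differences and not the calls. Positions are from GENCODE M21 and promoters from RefSeq. The members, the 8 pathway lists and the 4 marker lists were chosen with earlier results of these data known. Of each pathway list, up to 3 genes at least 2-fold apart with a mean of at least 100 were named. The level of 200 normalized counts for the more abundant genes as background was set after the data had been seen. Ufd1l was matched through its synonym Ufd1. Other scalings, an added count of 10, other thresholds and filters, and eBayes with trend were tried.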

Additional observations from a re-analysis of the deposited data

Results flagged for a closer look

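For 5 members the M9 library was lower than the K8 library in TRP1high and higher in TRP1low. The peptide difference of TRP1high minus that of TRP1low was -1.68 for Xbp1 (-0.20 in TRP1high and 1.48 in TRP1low) and -0.97 for Pdia4 (-0.48 and 0.49). It was -0.67 for Sdf2l1 (-0.24 and 0.42), -0.30 for Herpud1 (-0.27 and 0.03) and -0.18 for Edem1 (-0.11 and 0.06). With 1 library per group these differences in direction were not tested, and those of Herpud1 and Edem1 rest on small differences. The count of 5 is for the values as deposited, and the share of all genes with such opposite signs was not computed. Scaling moves the signs in TRP1low. Members with a positive difference there numbered 7 as deposited, 9 with upper quartile scaling and 6 with scaling to the same total. Hsp90b1 went from -0.06 to 0.0001 in TRP1low with upper quartile scaling.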

How the results depend on the processing

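Of the 65 alternative values of the counts, medians and calls, 57 stayed equal to the value given or within 1.5 times (counts) or the counting error (medians) of it. Some of the 57 could not move. Leaving out the minimum count could not change a count of members, because all 10 lay above 10 normalized counts in every library. At 1.5-fold, 2 members were higher and 1 lower in TRP1high than in TRP1low with K8, in place of 1 and 0. The median of the members for M9 against K8 in TRP1low, 0.079 as deposited, was 0.135 with upper quartile scaling and 0.016 with scaling to the same total. That for TRP1high against TRP1low with K8, 0.14 as deposited, was 0.204 with upper quartile scaling. With a trended prior, limma called 5 genes for the peptide and 260 for the receptor, and with an added count of 10 it called 32 for the receptor, against 0. The cause was not tested. None of the 10 members was called under any of these settings, where their adjusted p in limma was 0.52 or more for the peptide and 0.13 or more for the receptor. With upper quartile scaling, 4 small limma differences changed sign, to 0.012 (Calr) and 0.021 (Edem1) for the peptide and to 0.014 (Sdf2l1) and 0.049 (Edem1) for the receptor. The other 96 limma values of single members kept their direction. No paired analysis was possible because each group holds 1 library, and for the same reason no library could be left out. Depth limits Dnajb9 most, and splicing of Xbp1 cannot be read from values per gene.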

Other observations

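The pattern of Xbp1 over the libraries was searched for among the 9209 more abundant genes outside the members, a search chosen after its values were seen. The 5 nearest by Euclidean distance of centred log2 values over the 4 libraries were Crip2 (distance 0.093), Eef2k (0.193), Kif16b (0.225), Il12rb1 (0.241) and Tmem131l (0.252). Crip2 stood at 8.40 in TRP1high with M9, 8.53 in TRP1high with K8, 8.53 in TRP1low with M9 and 6.97 in TRP1low with K8. Il12rb1, a chain of cytokine receptors, stood at 12.04, 12.23, 11.95 and 10.78 in the same order. All 5 were lowest in TRP1low with K8. With 4 libraries such likeness is a description and was not tested.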
